A study of Triticum aestivum with 4 samples.

Results

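The gibberellin 20-oxidase genes GA20ox1A, GA20ox1B and GA20ox1D were followed in young wheat grain. Members were all probe sets of any gene whose symbol or synonym in the array or gene annotation contained the letters 20ox, and this gave 4 probe sets of 3 genes among the 61179 probe sets tested. Only the 1273 features with a listed gene could match by name. The 60017 features with no listed gene could not, so the members may not be all 20-oxidase probe sets of the array. GA20ox1D (LOC543325, synonyms Ta20ox1D and wga20) has 2 probe sets of the same transcript cluster, told apart by the endings _at and _x_at of their identifiers. GA20ox1B (LOC543326, synonym Ta20ox1B) and GA20ox1A (LOC543327, synonym Ta20ox1A) have 1 each. All 3 genes named so in the gene table had a probe set, and 0 further probe sets carried the transcript-cluster prefix of a member. No filter on low values was applied, so all 4 members were tested.

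The samples were whole developing seeds of *Triticum aestivum* of 2 wheat genotypes, Domain and RL4452, from whose cross a mapping population was bred, collected 5 days after anthesis from plants grown in the same field trial, with no treatment named. Each of the 4 arrays held seed of 1 biological replicate, numbered 1 or 3 within its genotype, and the labels do not say how many plants a tube of seed came from. The design of the study asks which transcripts differ in level between these parents. In whole seed, fewer cells of a type and less RNA per cell cannot be told apart.

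Gibberellins are growth hormones made from a diterpene precursor. Gibberellin 20-oxidases are soluble dioxygenases that remove a carbon from the longer-chain gibberellins in successive oxidations, and so supply the substrates from which 3-oxidases make the active hormones, while 2-oxidases inactivate them. In many plants the transcripts of 20-oxidases fall when active gibberellin is plentiful. In rice, loss of a 20-oxidase gene gives the semi-dwarf stature of modern varieties. Bread wheat carries the A, B and D genomes, and the letter closing each gene name is that of its genome. The 3 genes are homoeologues, copies of 1 ancestral gene, and cross-hybridisation among their probe sets was not tested. The suffix _x_at marks a probe set in which some probes match other sequences too.

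Each value is the ratio of an array to the 4-array median of that probe set, in log2 units, so 0 is that median. The 2 middle arrays of a probe set therefore lie close to symmetrically about a ratio of 1. A level cannot be compared between probe sets, and whether a transcript was above background in the seed was not measured here, since the files used hold no intensity or detection call. Domain replicate 3 and RL4452 replicate 1 were recorded with the same fluidics module number of the array washing station, the only number that held both genotypes. Only this number was read, so whether the arrays were washed on the same station or in the same run was not established. The shared fluidics module below means this number alone. The median log2 value over all probe sets tested lay between -0.019 and 0.010 in the 4 arrays.

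GA20ox1D, the D-genome 20-oxidase, had higher values in RL4452 than in Domain in both of its probe sets, by 1.74-fold and 1.68-fold, with no overlap of the genotypes. GA20ox1B, the B-genome copy, lay 1.18-fold higher and GA20ox1A, the A-genome copy, 1.16-fold lower. No member passed at a Benjamini-Hochberg adjusted p under 0.05 in limma, which called 0.280% of all probe sets (171 of 61179). At an unadjusted p under 0.05, 2 of the 4 members stood, both of GA20ox1D and both higher in RL4452, against 5.85% of all probe sets in either direction and 2.49% with RL4452 higher.

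In the _at probe set of GA20ox1D the ratios to the median were 0.747 in Domain replicate 1, 0.854 in Domain replicate 3, 1.15 in RL4452 replicate 1 and 1.69 in RL4452 replicate 3. On the log2 scale these are -0.42, -0.23, 0.20 and 0.76. Both Domain arrays were low, and RL4452 replicate 3 stood well above RL4452 replicate 1. The Domain mean was -0.32 ± 0.14 and the RL4452 mean 0.48 ± 0.40 in log2 units (SD, n = 2). RL4452 minus Domain came to 0.80, SE 0.25, with a 95% interval from 0.15 to 1.45 (limma unadjusted p = 0.0249, adjusted p = 0.692). This interval, from 1.11-fold to 2.73-fold, holds for the probe set taken alone and is not widened for the number of probe sets tested.

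In the _x_at probe set, the other one of GA20ox1D, the ratios were 0.706 and 0.796 in replicates 1 and 3 of Domain and 1.20 and 1.31 in those of RL4452. The corresponding log2 values were -0.50, -0.33, 0.27 and 0.39, again with both RL4452 arrays above both Domain arrays. Here the replicates of each genotype lay close together, with a Domain mean of -0.42 ± 0.12 and an RL4452 mean of 0.33 ± 0.09 (SD, n = 2). The genotypes differed by 0.74, SE 0.18, with a 95% interval from 0.28 to 1.21 (limma unadjusted p = 0.00955, adjusted p = 0.496). The gap from the higher Domain array to the lower RL4452 array was 0.60, while the Domain replicates were 0.17 apart and the RL4452 replicates 0.12. In the GA20ox1D _at probe set that gap was 0.42, less than the 0.56 between the RL4452 arrays.

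Both GA20ox1D probe sets are listed for the same gene and are not replicates of each other. Within an array their log2 values differed by 0.08 in Domain replicate 1, 0.10 in Domain replicate 3 and 0.07 in RL4452 replicate 1, but by 0.37 in RL4452 replicate 3. Both probe sets were highest in RL4452 replicate 3, the one ending in _at by more. Without RL4452 replicate 3 the difference of the GA20ox1D _at probe set was 0.52 (limma adjusted p = 1.00), and that of the GA20ox1D _x_at probe set was 0.68 (limma adjusted p = 0.907). RL4452 replicate 3 also stood apart in the ends of 7 wheat control transcripts, where the median 3' minus 5' log2 difference was 0.40. In RL4452 replicate 1 it was -0.22, and each Domain array had 0.00. The 7 transcripts ran from -0.07 to 1.74 in RL4452 replicate 3 and from -0.87 to 0.31 in RL4452 replicate 1. In Domain they ran from -0.25 to 0.40 in replicate 1 and from -0.26 to 0.35 in replicate 3. Each end is a ratio to the median of its own probe set, so these values compare arrays only. They do not show whether the ends were equal within an array. The part of transcript ends in the GA20ox1D result was not tested.

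For GA20ox1B the ratios were 0.964 and 0.860 in replicates 1 and 3 of Domain and 1.04 and 1.12 in those of RL4452. The log2 values were -0.05, -0.22, 0.05 and 0.16, and the genotypes did not overlap, though the gap between Domain replicate 1 and RL4452 replicate 1 was 0.10. It was smaller than the 0.16 that separated the Domain replicates and about as large as the 0.11 that separated those of RL4452. RL4452 minus Domain was 0.24, SE 0.18, with a 95% interval from -0.22 to 0.71 (limma unadjusted p = 0.238, adjusted p = 0.972). Without Domain replicate 3 the difference was 0.16. The interval of the full fit runs from 1.17-fold lower to 1.63-fold higher in RL4452 and so includes no difference.

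For GA20ox1A the ratios were 0.967 and 1.27 in replicates 1 and 3 of Domain and 0.874 and 1.03 in those of RL4452. The log2 values of -0.05 and 0.34 in Domain overlapped those of -0.19 and 0.05 in RL4452. The highest value came from Domain replicate 3, and the other 3 arrays spanned 0.24. RL4452 minus Domain was -0.22, SE 0.22, with a 95% interval from -0.79 to 0.35 (limma unadjusted p = 0.371, adjusted p = 0.981). Without Domain replicate 3 it was -0.03, without RL4452 replicate 1 it was -0.10, and without Domain replicate 1 it was -0.41, so the size rested on single arrays.

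**Figure D1:**
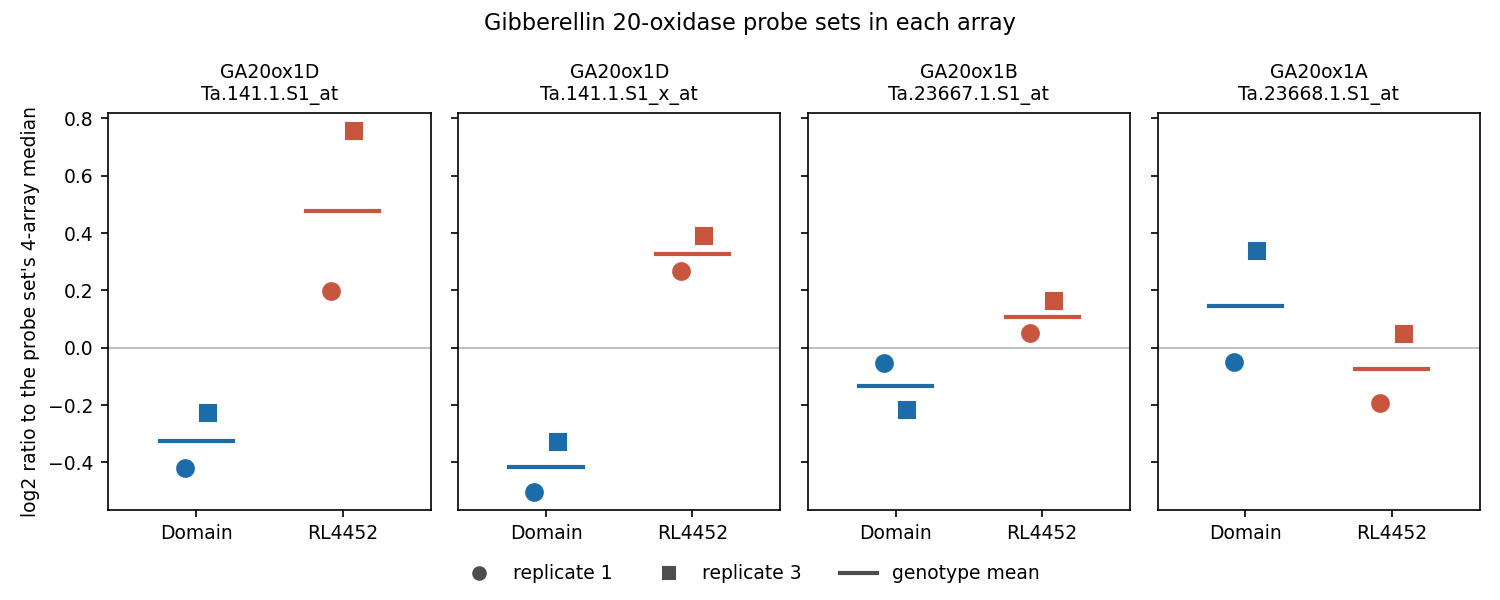
Log2 ratio to the probe set's 4-array median (vertical axis) for each gibberellin 20-oxidase probe set, with 1 point per array, circles for replicate 1, squares for replicate 3 and bars for genotype means. Both GA20ox1D probe sets and the GA20ox1B one show RL4452 above Domain with no overlap, with gaps of 0.42, 0.60 and 0.10, while GA20ox1A overlaps.

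Both RL4452 arrays lay above both Domain arrays in 3 of the 4 members, and 17.0% of all probe sets tested had that order. With only 3 genes and with 2 of these 3 probe sets reporting GA20ox1D, the count describes the members and is not a test. The median difference over the 4 members was 0.49, but 2 of them are of GA20ox1D, and with 1 value per gene, or without the probe set with shared probes, it was 0.24. Over all probe sets tested the median was 0.01, and the median absolute difference over all probe sets was 0.17. A difference of at least 1.5-fold with RL4452 higher was seen in 2 members, the GA20ox1D ones, and in 3.23% of all probe sets. A difference as high as that of the GA20ox1D _at probe set was found in 1.55% of all probe sets, and one as high as that of the GA20ox1D _x_at probe set in 1.83%. For GA20ox1B the share was 17.8%, and 20.0% of probe sets had a difference as low as that of GA20ox1A.

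The smallest absolute difference among the 171 called probe sets was 1.87 in log2 units, or 3.66-fold, and all 4 members lay below it. Whether these calls rest on single arrays was not tested. Leaving an array out leaves its genotype with a lone array and the fit with 1 residual degree of freedom. A loss of calls then does not show that they rest on the array left out. A p that misses the threshold here does not show that the genotypes had equal levels. The members differed in precision. The residual SD, the spread of replicates about their genotype mean, was 0.11 for the GA20ox1D _x_at probe set and 0.10 for GA20ox1B, and 19.2% and 17.4% of probe sets had a smaller one. It was 0.23 for GA20ox1A and 0.30 for the GA20ox1D _at probe set, against a median of 0.21 over all probe sets.

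**Figure D2:**
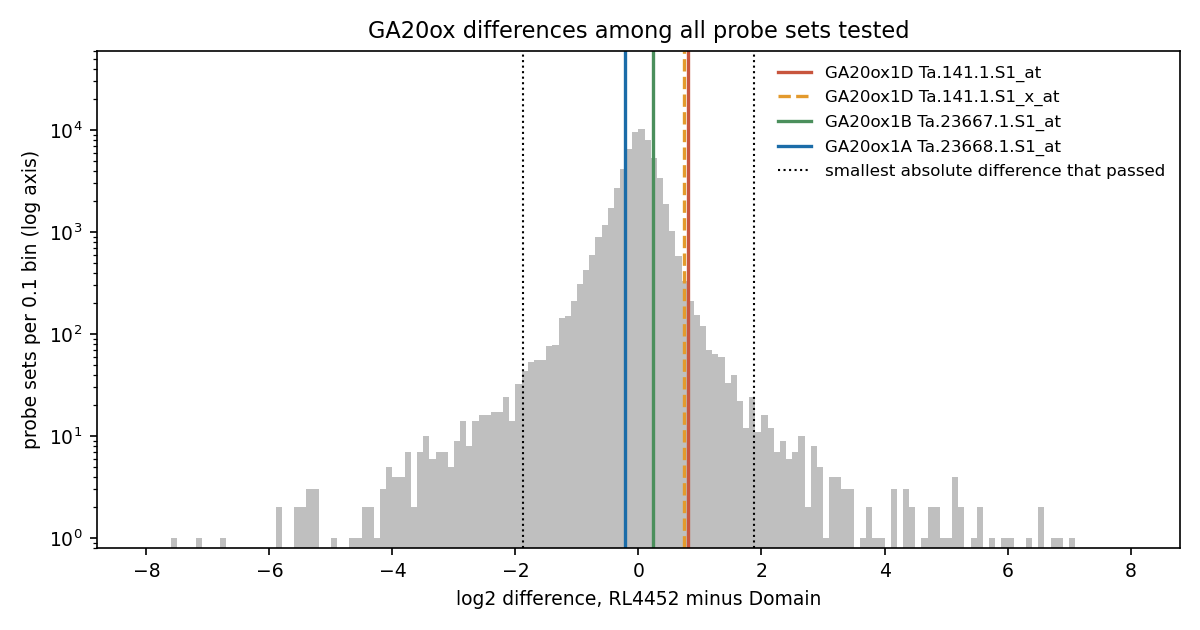
Number of probe sets (log axis) in bins of 0.1 by log2 difference, RL4452 minus Domain, over the 61179 probe sets tested, with vertical lines at the members and dotted lines at plus and minus the smallest absolute difference that passed, 1.87. The GA20ox1D lines at 0.74 and 0.80 lie on the upper flank, and those of GA20ox1B (0.24) and GA20ox1A (-0.22) lie within the central mass.

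The 3 homoeologues were next compared within each array, which asks whether the genotype difference of 1 copy was larger than that of another. GA20ox1D was taken as the mean of its probe sets, which had a log2 difference of 0.77, or 1.71-fold. GA20ox1D minus GA20ox1A was -0.41 and -0.62 in replicates 1 and 3 of Domain and 0.43 and 0.53 in those of RL4452. Both Domain arrays were below 0 and both RL4452 arrays above it, with a Domain mean of -0.52 ± 0.14 and an RL4452 mean of 0.48 ± 0.07 (SD, n = 2). The relative change between the D and A copies was 0.99 in log2 units, or 1.99-fold towards GA20ox1D in RL4452. It ran from 0.89 to 1.09 when each array was left out.

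GA20ox1D minus GA20ox1B was -0.41 and -0.06 in replicates 1 and 3 of Domain and 0.18 and 0.41 in those of RL4452. The genotype contrast was 0.53, with a gap between the genotypes that was smaller than the spread within Domain. This contrast ran from 0.36 to 0.70 when each array was left out, and it was 0.24 within the shared fluidics module. GA20ox1B minus GA20ox1A was -0.004 and -0.56 in replicates 1 and 3 of Domain and 0.25 and 0.12 in those of RL4452, a contrast of 0.46 that was 0.19 without Domain replicate 3, 0.74 without Domain replicate 1 and 0.80 within that module. The genotypes did not overlap in any of the 3 pairs, which are not independent since any 2 of them fix the third. For GA20ox1B minus GA20ox1A the gap was also smaller than the spread within Domain. Among single probe sets, 17.0% had RL4452 above Domain and 15.5% below it with no overlap. No such share was computed over other pairs of genes. Each pair had p = 0.333 in the exact permutation test (two-sided, n = 2 per genotype; 0.333 after Benjamini-Hochberg over the 3 pairs). That is the smallest p that 2 arrays per genotype allow, so this test could not pass. Unequal change of the copies was therefore not established, and a contrast between copies would not show which copy changed.

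**Figure D3:**
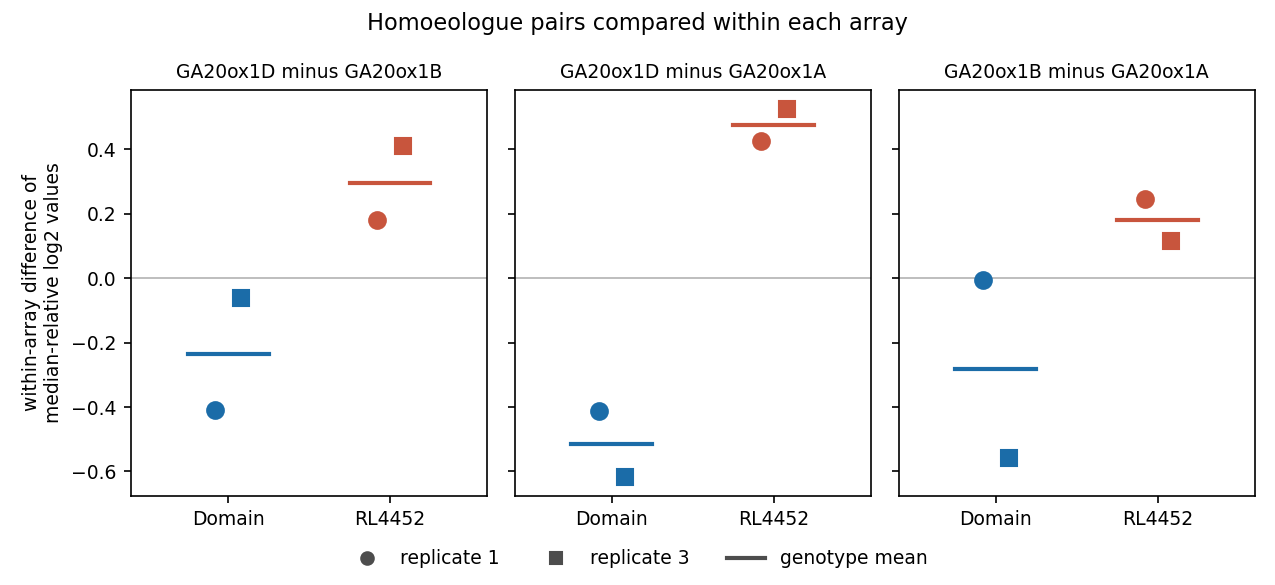
Within-array difference of median-relative log2 values (vertical axis) for each pair of gibberellin 20-oxidase homoeologues, with 1 point per array and bars for genotype means. The D against A pair has means of -0.52 in Domain and 0.48 in RL4452 and the tightest replicates, while the other pairs have contrasts of 0.53 and 0.46 with wider replicates.

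Across the settings tried, the sign of every member's difference stayed the same. For the 3 members with no overlap, leaving out arrays or taking 1 array per genotype could not change it. For GA20ox1A, RL4452 replicate 3 minus Domain replicate 1 was 0.10, the opposite sign, and that pairing was not among the settings. Leaving out each array gave 0.52 to 1.08 for the GA20ox1D _at probe set, 0.66 to 0.83 for the GA20ox1D _x_at probe set, 0.16 to 0.32 for GA20ox1B and -0.41 to -0.03 for GA20ox1A. The range was widest for the GA20ox1D _at probe set, whose low end was reached without RL4452 replicate 3 and whose high end without RL4452 replicate 1. Between the arrays of the shared fluidics module the differences were 0.42 and 0.60 for the GA20ox1D probe sets, 0.27 for GA20ox1B and -0.53 for GA20ox1A, values from 1 array per genotype with no test.

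**Figure D4:**
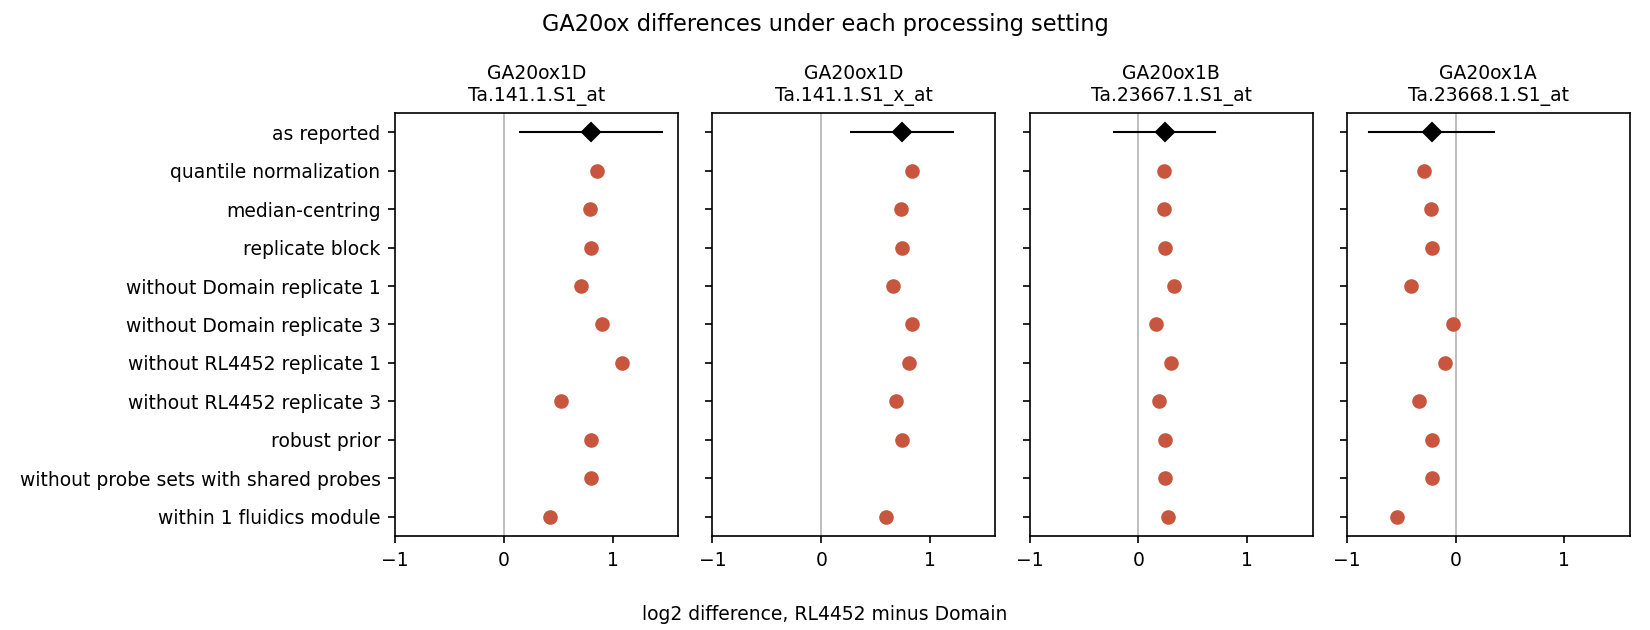
Log2 difference, RL4452 minus Domain (horizontal axis), of each gibberellin 20-oxidase probe set under each processing setting (vertical axis), with a diamond and a 95% interval for the reported value and circles for the alternatives. Values of the GA20ox1D _x_at probe set stay between 0.60 and 0.84, those of the GA20ox1D _at probe set spread from 0.42 to 1.08, and those of GA20ox1A run from -0.53 to -0.03.

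Other genes of the gibberellin pathway were sought by 10 name patterns, covering the steps before the 20-oxidase (CPS, KS or KSL, KAO), the 3-oxidases and 2-oxidases, the receptor GID1, the DELLA repressor Rht, the regulator GAMYB, amylase targets and the word gibberellin itself. The gene table named 3 genes of GA3ox, which makes the active hormones, and 1 DELLA gene, which restrains growth until gibberellin is bound by its receptor. None of these 4 genes had a listed probe set on the array, so they were not analysed here. Only 1 probe set matched, that of LOC543318, whose synonyms are amy1 and BMY1. Its log2 values were 0.18 and 0.06 in replicates 1 and 3 of Domain and -0.06 and -0.64 in those of RL4452. The Domain arrays lay above the RL4452 arrays, an order that 15.5% of all probe sets had, and RL4452 replicate 3 was lowest. RL4452 minus Domain was -0.47, SE 0.25, with a 95% interval from -1.12 to 0.18 (limma adjusted p = 0.947), and it was -0.18 without RL4452 replicate 3, -0.76 without RL4452 replicate 1 and -0.12 within the shared fluidics module. An amylase target of gibberellin would be an alpha-amylase, whereas BMY1 names a beta-amylase, and the tables do not settle which this probe set measures. The 8 patterns for abscisic acid, a hormone that opposes gibberellin in seed, and for germination genes matched 0 probe sets. They also matched 0 genes in the gene table. For both lists only features with a listed gene could match, so a lack of matches does not show that the array lacks such genes.

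The listed genes with the values most like those of GA20ox1D were found by Euclidean distance over the 4 arrays from the mean of its probe sets, among 1269 other probe sets with 1 listed gene. The 5 nearest were LOC100125710, LOC606365, LOC100037602, LOC543216 and LOC543096, at distances of 0.13, 0.15, 0.20, 0.21 and 0.26 in log2 units. For comparison, GA20ox1B lay at 0.61 and GA20ox1A at 1.01, and the median over all other probe sets was 0.87. The GA20ox1D _at probe set lay at 0.20, but it is itself part of that mean. Its distance is therefore smaller than that between the 2 GA20ox1D probe sets, and is not comparable with those of other genes. All 5 carry a LOC number alone, and the tables give them no role. The nearest, LOC100125710, had log2 values of -0.49 and -0.37 in replicates 1 and 3 of Domain and 0.29 and 0.51 in those of RL4452, with a difference of 0.83 (limma adjusted p = 0.439). The differences of the other 4 ran from 0.57 to 0.80, and none passed (limma adjusted p from 0.531 to 0.895). The difference of LOC543096 was 0.62 with all arrays and 0.36 without RL4452 replicate 3. Between the arrays of the shared fluidics module the differences were 0.16 for LOC543096, 0.28 for LOC543216 and 0.34 for LOC100037602. Those of the 2 nearest genes there were 0.66 for LOC100125710 and 0.63 for LOC606365. Of the other probe sets of these 5 genes, one of LOC100037602 had 0.57, close to the named one, and the lowest of that gene had 0.05. Those of LOC100125710 had 0.00 to 0.32, LOC606365 0.14, LOC543216 0.01 and LOC543096 -0.24 to 0.18. A total of 159 of the 61175 other probe sets lay no farther than the fifth of these genes, and 12 no farther than the first. The likeness rests on 4 arrays only, and every profile is centred on its own median.

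**Figure D5:**
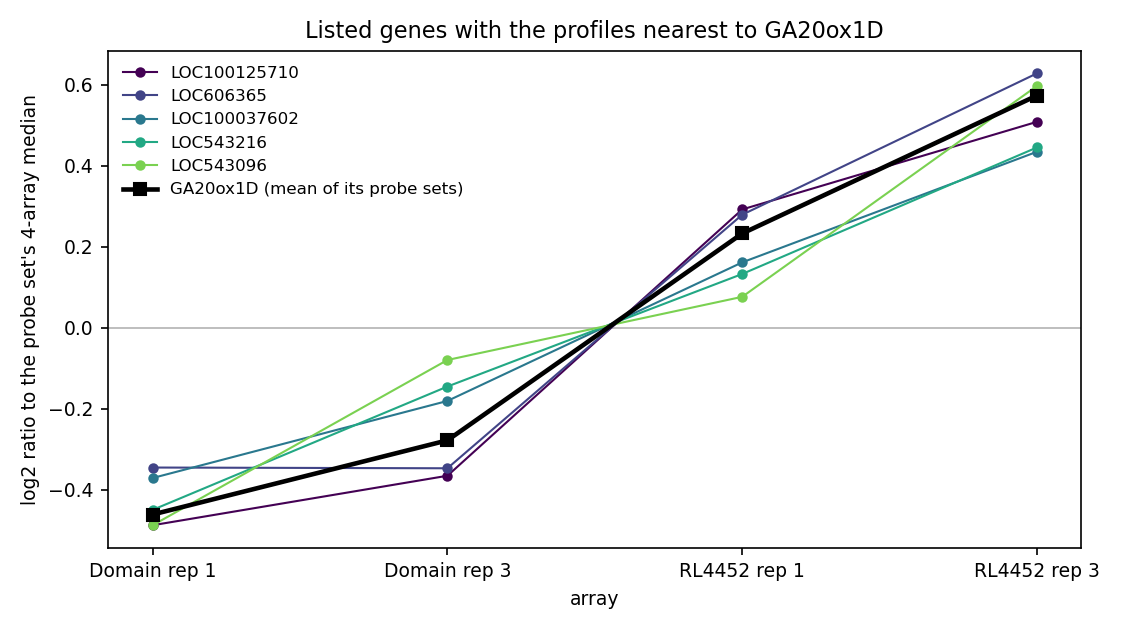
Log2 ratio to the probe set's median (vertical axis) in the 4 arrays (horizontal axis) for GA20ox1D, as the mean of its probe sets in black, and for the 5 listed genes at the smallest distance from it, with lines joining the values of 1 gene. All 6 are below 0 in both Domain arrays and above 0 in both RL4452 arrays, with distances of 0.13 to 0.26.

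Marker genes of seed tissues, and of the anther, were read beside these values. Starchy endosperm, which stores the grain's protein and starch, was represented by 18 probe sets of 9 genes. Of these, 15 were lower and 3 higher in RL4452, with a median difference of -0.38 and 0 called. Over all probe sets tested, 52.0% had a difference above 0, and probe sets of 1 gene are not independent. The median of the endosperm probe sets was 0.70 in Domain replicate 3, against 0.01 in Domain replicate 1, -0.07 in RL4452 replicate 1 and -0.09 in RL4452 replicate 3. Domain replicate 3 was also the highest array for GA20ox1A, while for GA20ox1D it was low, as Domain replicate 1 was. The embryo list of 6 probe sets had 3 higher and 3 lower in RL4452, with a median difference of 0.02. The green pericarp list, 28 probe sets of the 1 gene rbcL, had 18 higher and 10 lower, with a median difference of 0.03. The anther list of 4 raftin probe sets had 1 higher and 3 lower, with a median difference of -0.11. Each of these lists had 0 called. The part of tissue composition in the 20-oxidase values was not tested, and the ratios do not show which markers were near 0.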

How the data were processed

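Whole seed RNA of 4 samples was hybridised to an Affymetrix wheat array. The authors deposited each value as a linear ratio. The submitters' processing notes name RMA, while its version and any step between RMA and the ratio are not stated there. The 4-array median was within 0.002 of 1 for 99.5% of the 61290 features. The ratios were log2-transformed without a pseudocount, 111 control probe sets were left out, and RL4452 was compared with Domain over 61179 probe sets by limma (version 3.58.1, R version 4.3.3) with a genotype term alone (lmFit, then eBayes, with 2 residual and 2.99 prior degrees of freedom, Benjamini-Hochberg over all probe sets, two-sided). Intensities were not used here, and precision is limited by having 2 arrays per genotype. The arrays are labelled biological replicates with no word on separate plants, so p-values measure only the spread between these samples, which may be technical.

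Symbols came from the array annotation, which listed 1273 features, and were updated from RefSeq genes of the wheat assembly IWGSC CS RefSeq v2.1, whose coordinates were not used. Named were all members, the probe sets of 2 pathway lists, and the 5 nearest listed genes. The endosperm markers include the abbreviations gli and LMW, added after names had been seen. Members and lists were chosen with earlier results of these data known. Fluidics modules were taken from the settings recorded for each array. The permutation tests used scipy 1.17.1, and Python 3.11.15, pandas 2.3.3, numpy 2.4.6 and matplotlib 3.10.9 made the tables and figures.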

Additional observations from a re-analysis of the deposited data

How the results depend on the processing

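No GA20ox probe set was called by limma under any of the 10 settings with a test, and 0 to 2 of them had an unadjusted p under 0.05. Over all probe sets, calls were 0 with a replicate block (4555 at an unadjusted p under 0.05) and 0 to 128 when each array was left out, with 0 without Domain replicate 1 (3292 at an unadjusted p under 0.05), 0 without Domain replicate 3 (3418) and 101 without RL4452 replicate 1. There, a lone array is taken to be as variable as those of the other genotype, with 1 residual degree of freedom. The labels do not say that the numbers pair samples. Across probe sets, the replicate differences of Domain and of RL4452 correlated at 0.143. With the block, which leaves 1 residual degree of freedom, calls over all probe sets went from 171 to 0. The members had 0 calls both with and without it. The members' median of 0.49 became 0.24 without probe sets with shared probes and with 1 value per gene, both of which drop or merge a GA20ox1D probe set, 0.35 within the shared fluidics module and 0.35 to 0.55 when each array was left out. The GA20ox1D mean of 0.77 became 0.51 within the module and ran from 0.60 to 0.94 over arrays left out. Of the contrasts between copies, whose alternatives were chosen after seeing the data, GA20ox1D minus GA20ox1A was 1.13 after quantile normalization, and within the module GA20ox1D minus GA20ox1B was 0.24 and GA20ox1B minus GA20ox1A 0.80. The cause was not tested. Over arrays left out the latter contrasts ran from 0.36 to 0.70 and from 0.19 to 0.74. A filter on dim probe sets was not run, since ratios hold no levels, and a module block leaves too few arrays.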
